A study of Mus musculus with 9 samples.

Results

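Molecular chaperones bind unfolded or misfolded proteins and help them reach or regain their native form. Those described here are the mouse genes whose symbols begin with Hsp (without Hspg2, a matrix proteoglycan), Dnaj, Pdia followed by a digit, or Cct2 to Cct8, without pseudogenes, and whose counts summed to at least 100 over 9 RNA-seq libraries. Of 89 genes with such a symbol, 77 passed this minimum, out of 55487 genes in the table. All 77 also entered the statistical test. The other 12 had sums of 58 or fewer, among them Cct6b with 55, Pdia2 with 5 and Dnajb8 with 0. Members close above the minimum include Dnajb7 with 154, Dnajb13 with 164 and Hspb2 with 598 counts.

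The libraries came from PT-22, a mouse cell line of the kidney proximal tubule, the nephron segment that takes back most of the filtered solutes. All cells carried the genotype Pax2-/-, Pax8fl/fl, Rosa-CreERT2, in which Cre becomes active with 4-hydroxytamoxifen and can delete the floxed Pax8 gene, together with a Pax8-pTRIPZ construct that doxycycline switches on. Day 0 cells were untreated, day 6 cells had received 4-hydroxytamoxifen at 1 uM, and day 12 cells had then also received doxycycline at 1 ug/ml. Each day had 3 libraries, named A, B and C. The labels differ on the length of the 4-hydroxytamoxifen treatment. Nothing in them tells whether A, B and C of a day were grown as separate cultures, and the spread behind each p-value may therefore be a technical one. No vehicle control and no doxycycline-free day 12 group were analysed here, so drug, time in culture and PAX8 cannot be told apart.

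Chaperones of the HSP70 family hold exposed stretches of a client protein in cycles of ATP hydrolysis. J proteins (the Dnaj genes) bring clients and start the cycle, and the HSP110 proteins and other exchange factors end it. HSP90 proteins act later on clients such as kinases and steroid receptors, small heat shock proteins hold clients without ATP, and the ring-shaped chaperonins enclose them. The endoplasmic reticulum (ER) and mitochondria have their own sets. The heat shock factor HSF1 induces many cytosolic chaperones when unfolded protein builds up, and the unfolded protein response, through ATF6, XBP1 and ATF4, induces those of the ER.

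The libraries held 56398623 to 86767334 counts. Pax8 itself did not fall after 4-hydroxytamoxifen. It had 399, 405 and 410 CPM at day 6 (counts scaled to a common library size), against 292, 289 and 292 CPM at day 0, a log2 fold change of 0.48 ± 0.029 (SE, adjusted p = 8.68e-10, edgeR). Which exons of Pax8 were floxed, and whether transcripts of the construct were counted as Pax8, is not given in the labels, so this count does not check the deletion, and the groups are named by day. At day 12 Pax8 had 496, 503 and 487 CPM. Pax2 was also counted in these Pax2-/- cells, with means of 31.9, 46.9 and 52.3 CPM at days 0, 6 and 12. What these Pax2 counts come from was not tested. Of 9 proximal tubule markers, Slc34a1 and Slc22a6 were at 0 in every library, and Hnf4a and Slc5a2 reached at most 0.0358 and 0.0239 CPM. The other 5 had enough counts to be tested. The summed level of the 9 was 557 to 656 CPM at day 0, 424 to 461 CPM at day 6 and 463 to 517 CPM at day 12. Most of it came from 2 genes that moved in opposite directions. Lrp2, an endocytic receptor, had 343, 399 and 430 CPM at day 0, 55.2, 50.5 and 70.5 CPM at day 6 and 82, 57.3 and 76 CPM at day 12. Aqp1, a water channel, had 123, 103 and 129 CPM at day 0, 333, 312 and 327 CPM at day 6 and 342, 310 and 331 CPM at day 12. Sums of 7 fibroblast markers were 7.97 to 8.43 CPM at day 0, 7.42 to 7.63 CPM at day 6 and 11.5 to 13.5 CPM at day 12, within which Dcn was lowest at day 6 (0.384 to 0.513 CPM, against 4.84 to 4.97 CPM at day 0) and Pdgfrb highest (2.2 to 2.72 CPM, against 0.0478 to 0.101 CPM at day 0). Sums of 5 endothelial markers lay between 0.16 and 0.482 CPM. For 6 immune markers, of which Cd3e and Ms4a1 were at 0, they were 40.6 to 45.9, 22.1 to 25.3 and 26.6 to 27.5 CPM at days 0, 6 and 12. Within these, Csf1r averaged 25.5, 7.96 and 13 CPM and Ptprc 2.12, 0.0299 and 0.275 CPM at the same days. Cd68 averaged 15.7, 15.7 and 13.9 CPM, and Itgam did not exceed 0.0119 CPM. The part of these shifts in the chaperone results was not tested, and fewer cells of a type cannot be told apart from less RNA per cell.

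Chaperone transcripts were lower at day 6 than at day 0 and in part higher again at day 12. Together the 77 genes took 1.83% to 1.91% of the counts of a library at day 0, 1.44% to 1.51% at day 6 and 1.81% to 1.85% at day 12. Summed over the genes after TMM scaling, which sets the libraries against the bulk of all genes, they held 18946 to 19789 CPM at day 0, 14928 to 15483 CPM at day 6 and 17060 to 17357 CPM at day 12. In the deposited TPM, which are per length and add up to a fixed total, the sums were 12348 to 13026, 10094 to 10327 and 13360 to 13821 TPM. The 3 groups did not overlap on either scale, but day 12 lay below day 0 in summed CPM and above it in summed TPM. Transcripts of the mitochondrial genome took 6.66% to 6.94% of counts at day 0, 7.04% to 7.18% at day 6 and 2.1% to 3.96% at day 12, and the part of this shift in the difference between the scales was not tested. Of the counts outside the mitochondrial genome, the 77 genes took 1.97% to 2.05% at day 0 and 1.55% to 1.62% at day 6. At day 12 this share was 1.86% to 1.92%, below day 0 in every library.

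**Figure D1:**
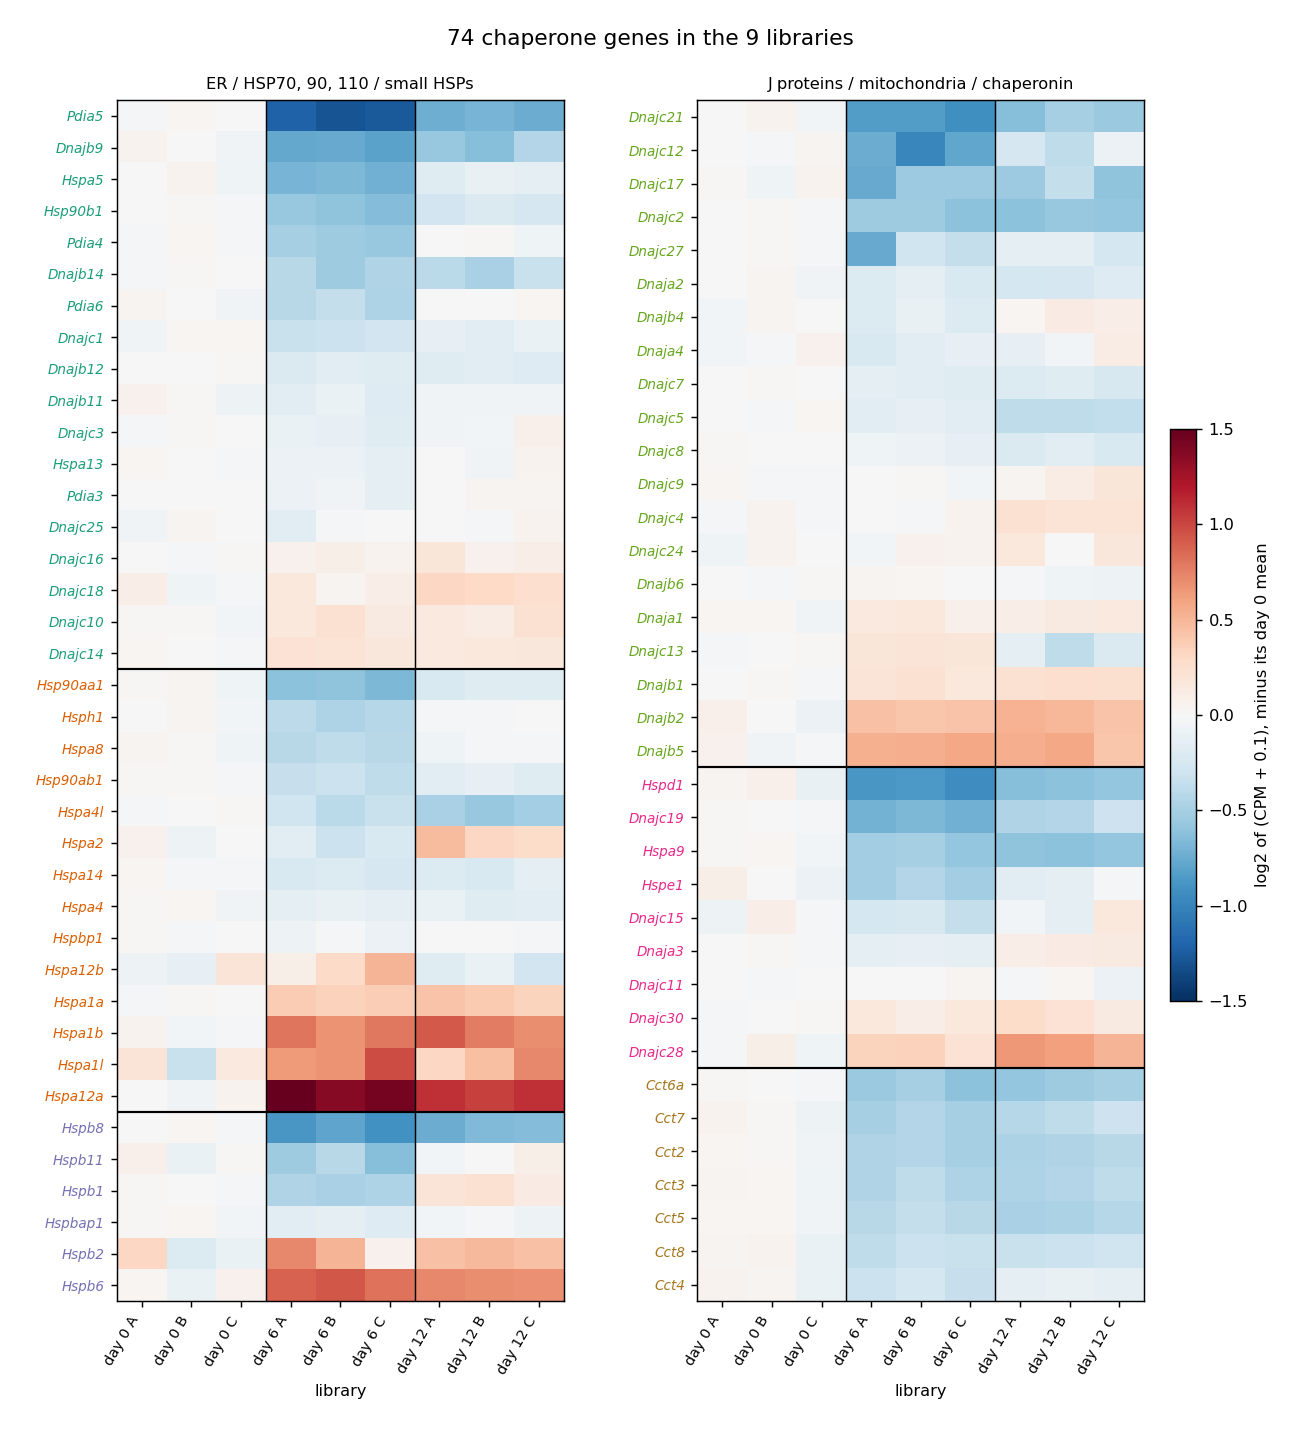
Each row is 1 of the 74 chaperone genes with a mean of at least 0.5 CPM and each column 1 of the 9 libraries, with colour giving log2 of (CPM + 0.1) minus the gene's mean at day 0. Most rows are blue at day 6, and Hspa12a, Hspa1b and Hspb6 are the deepest red of the genes above 5 CPM. Many of the blue rows are paler at day 12. Of all 77 genes, 35 were called higher at day 12 than at day 6 on the scale drawn and 64 in log2(TPM + 1), each at an adjusted p under 0.05. On the scale drawn, 22.6% of all genes tested were called higher. In log2(TPM + 1), 8876 of all 16353 genes were called, 90.1% of these higher.

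Between day 6 and day 0, 48 of the 77 genes fell, 15 rose and 14 did not pass an adjusted p of 0.05 (edgeR quasi-likelihood test, adjusted over all 16353 genes tested). Over all genes tested, 31.4% fell and 33.5% rose, 64.9% together. A change of at least 2-fold was called in 1 chaperone gene that rose (Hspa12a) and 1 that fell (Pdia5), where 9.66% and 4.65% of all genes did so. The median log2 fold change was -0.176 for the chaperone genes and 0.022 for all genes. Of the 63 calls, 58 were made in every fit that left out 1 library, and 55 under every scaling tried.

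Between day 12 and day 6, 35 genes rose and 9 fell, where 22.6% of all genes rose and 22.7% fell (45.3% together), and the median log2 fold change was 0.087 against 0.008 for all genes. No chaperone gene rose by 2-fold or more and 1 fell by that much (Dnajb7, under 0.5 CPM in every library), where 2.28% and 1.99% of all genes did so. On log2(TPM + 1) tested with limma, 64 rose and 2 fell. That scale moved the median of all genes to 0.164. It called 8876 of the 16353 genes, 90.1% of these higher, against 50% of the calls on the TMM scale. Relative to the shifted median, 58 of the 77 genes lay above it. Of the 44 calls, 34 were made in every fit without 1 library and 34 under every scaling.

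Between day 12 and day 0, 20 genes rose and 33 fell, where 34.7% of all genes rose and 31.7% fell (66.4% together), with medians of -0.047 and 0.025. By 2-fold or more 1 rose (Hspa12a) and none fell, where 9.43% and 4.18% of all genes did so. The split depended on the scale. In log2(TPM + 1), 41 rose and 16 fell. That scale called 10394 of the 16353 genes, 81.3% of these higher, against 52.3% of the calls on the TMM scale. Its median of all genes was 0.186. Relative to that median 37 genes lay above and 40 did not. Of the 53 calls, 48 were made in every fit without 1 library but 36 under every scaling. Directions between day 12 and day 0 are therefore given below with the value in log2(TPM + 1) wherever the sign differs. A value there under 0.186 lies below that scale's median of all genes, even where it is positive.

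Of the 18 genes placed at the ER, 13 fell and 2 rose between day 6 and day 0. These are 72.2% and 11.1%, where 31.4% and 33.5% of all genes did so. At day 12 against day 6, 12 rose and none fell, where 22.6% and 22.7% of all genes did so. On log2(TPM + 1), where 8876 of all 16353 genes were called and 90.1% of these were higher, all 18 rose. Set against day 0, day 12 had 7 lower and 4 higher genes on the TMM scale. These are 38.9% and 22.2%, against 31.7% and 34.7% of all genes. In log2(TPM + 1), where 10394 of all 16353 genes were called and 81.3% of these were higher, 2 were lower and 11 higher. The medians of the 18 genes were -0.17, 0.124 and -0.012 in these 3 comparisons on the TMM scale.

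Some of these genes carry the ER stress response element (ERSE), the letters CCAAT and CCACG with any 9 bases between them, which ATF6 and XBP1 are known to bind with NF-Y. Both strands of the RefSeq promoter windows (250 bases before to 50 after each transcription start, GRCm38.p6) were searched. Of the 77 genes, 63 had a window, 81 windows in all, and 4 held the letters: Hspa5, Hsp90b1 (2 matches), Pdia6 and Dnajc3. All 4 belong to the 16 ER genes with a window. Of all 27025 genes with a window, 0.137% held them. The related ERSE-II, ATTGG and CCACG with any 1 base between them, was in the window of Dnajb11, and in 0.0444% of all genes. Both elements contain CCACG and, on one strand or the other, CCAAT, and no member's window held both. The sites are shown because they lie at the ER genes described next, while none of the windows of the other role groups held either element. Capitals mark the fixed letters of the element, which read as their complement where it lies on the other strand.
Hspa5, chr2:34772020-34772049, plus strand: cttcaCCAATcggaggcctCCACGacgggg
Pdia6, chr12:17266486-17266515, plus strand: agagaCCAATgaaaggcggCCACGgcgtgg
Dnajc3, chr14:118937822-118937851, plus strand: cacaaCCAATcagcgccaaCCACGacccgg
Dnajb11, chr16:22857843-22857872, plus strand: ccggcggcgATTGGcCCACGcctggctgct
The Hsp90b1 promoter, with a match on each strand, is shown over 185 bases that hold no annotated exon.
Hsp90b1, chr10:86705510-86705694, minus strand: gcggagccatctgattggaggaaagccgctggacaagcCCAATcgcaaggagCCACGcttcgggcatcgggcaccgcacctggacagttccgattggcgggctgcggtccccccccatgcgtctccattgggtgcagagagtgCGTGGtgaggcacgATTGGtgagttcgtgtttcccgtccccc

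The Hspa5 match began 65 bases before the RefSeq start, inside the extent GENCODE gives the gene, and those of Pdia6 and Dnajc3 98 and 105 bases before it. In Hsp90b1 the matches began 212 and 107 bases before the start, and the ERSE-II letters of Dnajb11 began 7 bases after it. The genes with a match did not move alike. Hspa5 and Hsp90b1 changed by -0.70 and -0.61 (log2 fold change, day 6 against day 0), Pdia6 by -0.41, Dnajb11 by -0.16 and Dnajc3 by -0.13. A match of letters is a description of the sequence and does not show that a factor binds there.

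**Figure D2:**
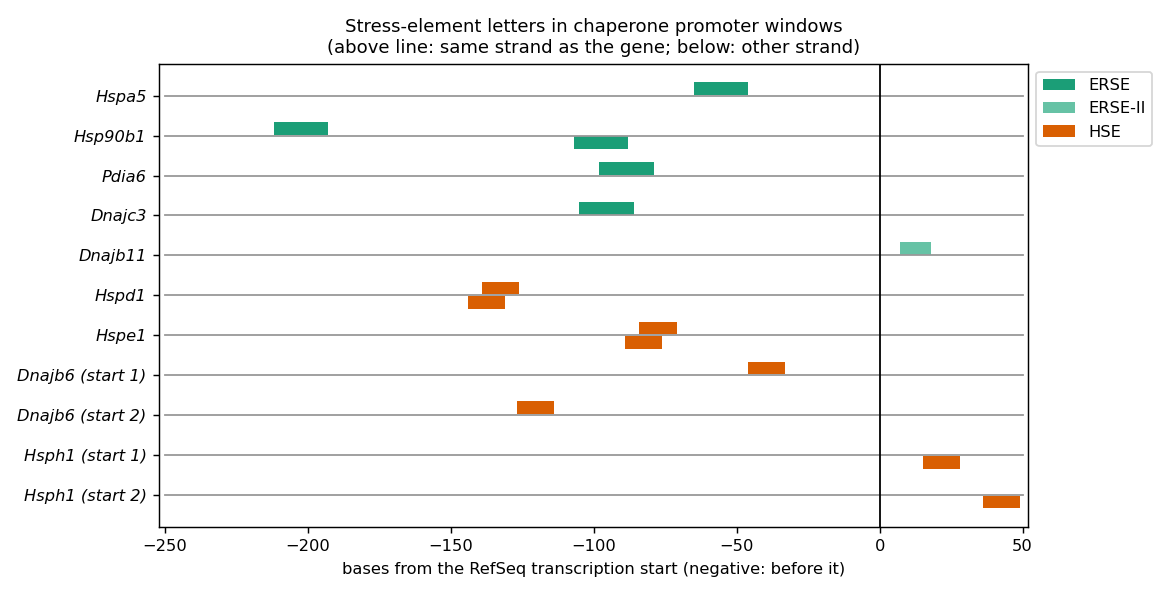
Matches of ERSE, ERSE-II and the heat shock element (HSE) in chaperone promoter windows, by distance in bases from the RefSeq transcription start; a bar above the line lies on the gene's strand and a bar below it on the other. The ERSE matches lie between 212 and 47 bases before the start, and Hspd1 and Hspe1 each show the 2 overlapping HSE matches of 1 shared site.

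Hspa5 encodes BiP, the HSP70 of the ER lumen and a sensor of unfolded protein (ENSMUSG00000026864, chr2:34771970-34777547). It had 850, 882 and 812 CPM at day 0, 524, 530 and 514 CPM at day 6 and 748, 784 and 767 CPM at day 12. No groups overlapped, day 6 was lowest, and day 12 lay between. It fell by 38.4% at day 6 against day 0 (log2 fold change -0.70 ± 0.036, adjusted p = 1.18e-10) and rose by 46.6% at day 12 against day 6 (0.55 ± 0.036, adjusted p = 1.58e-08). Between day 12 and day 0 the value was -0.15 ± 0.035 (adjusted p = 0.002) on the TMM scale. In log2(TPM + 1) it was 0.19, level with that scale's median over all genes.

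Hsp90b1 encodes GRP94, the HSP90 of the ER (ENSMUSG00000020048, chr10:86690209-86705509). Its levels were 980, 996 and 972 CPM at day 0, 665, 645 and 627 CPM at day 6 and 807, 844 and 826 CPM at day 12. The order was that of Hspa5, again with no overlap. Day 6 differed from day 0 by -0.61 ± 0.033 (adjusted p = 2.48e-10), day 12 from day 6 by 0.35 ± 0.033 (adjusted p = 7.17e-07), and day 12 from day 0 by -0.25 ± 0.033 (adjusted p = 6.79e-06), which became 0.01 in log2(TPM + 1). Relative to that scale's median of all genes, this last value was -0.18.

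The protein disulfide isomerases (Pdia genes) form and rearrange disulfide bonds in secreted and membrane proteins. Pdia5 was the member with the strongest fall of all 77 genes between day 6 and day 0 on the TMM scale. It had 41.6, 43.4 and 42.3 CPM at day 0, 18.2, 17.3 and 17.6 CPM at day 6 and 25.6, 26.2 and 25.2 CPM at day 12. The 3 groups stood far apart, with day 12 nearer to day 6 than to day 0 in CPM. In log2(TPM + 1) Pdia5 differed at day 12 by 0.71 from day 6 and by -0.45 from day 0. It fell by 58.3% at day 6 against day 0 (log2 fold change -1.26 ± 0.039, adjusted p = 2.73e-13), rose by 0.54 ± 0.04 between day 12 and day 6 (adjusted p = 6.26e-08), and remained lower at day 12 than at day 0 (-0.72 ± 0.037, adjusted p = 1.73e-10; -0.45 in log2(TPM + 1)).

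Pdia4 and Pdia6, which encode ERp72 and P5, fell at day 6 and overlapped day 0 at day 12 in CPM. For Pdia4 these were 126, 130 and 126 CPM at day 0, 89.9, 87.7 and 85.8 CPM at day 6 and 127, 129 and 122 CPM at day 12. Pdia6 had 176, 172 and 165 CPM at day 0, 128, 133 and 124 CPM at day 6 and 172, 172 and 174 CPM at day 12. Both fell at day 6 against day 0 (-0.54 ± 0.031 for Pdia4, -0.41 ± 0.034 for Pdia6) and rose at day 12 against day 6 (0.52 ± 0.031 and 0.42 ± 0.034), and the libraries of day 12 and day 0 overlapped. Their differences between day 12 and day 0 were -0.02 ± 0.031 for Pdia4 (adjusted p = 0.647) and 0.01 ± 0.033 for Pdia6 (adjusted p = 0.794), and 0.23 and 0.27 in log2(TPM + 1). Pdia3, which encodes ERp57, the partner of calnexin and calreticulin, moved little. It had 670, 687 and 646 CPM at day 6 against 714, 709 and 715 CPM at day 0, a change of -0.09 ± 0.032 (adjusted p = 0.018) that lost its call without library C of day 6 (adjusted p = 0.0972) and in log2(TPM + 1) (-0.05, adjusted p = 0.23).

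**Figure D3:**
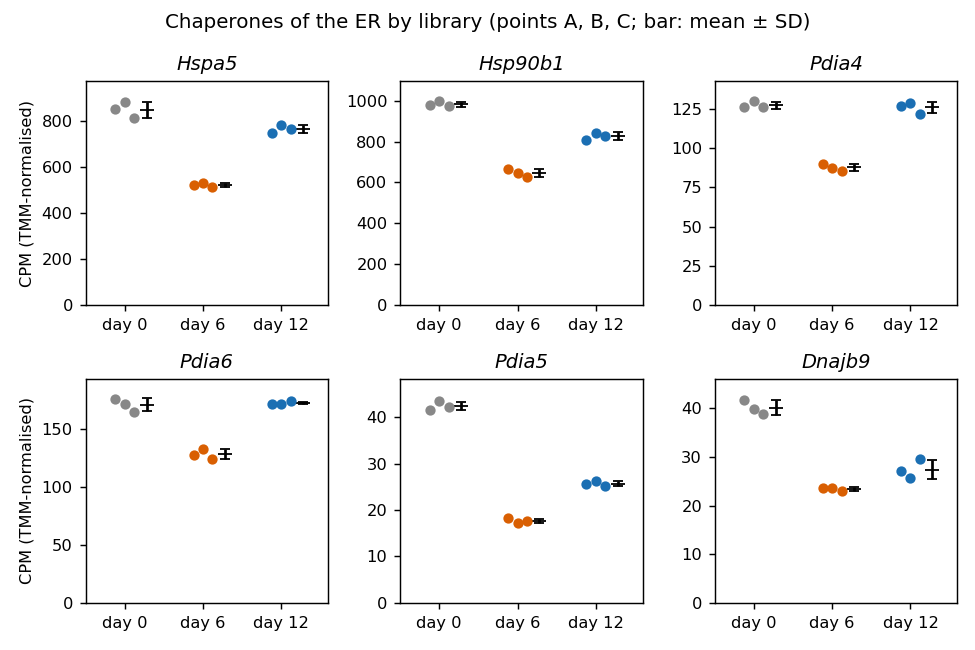
CPM of 6 ER chaperone genes in each library (points A, B and C by day) with the mean ± SD of 3 libraries as a bar. In each panel day 6 is lowest. For Pdia4 and Pdia6 day 12 overlaps day 0, and for Hspa5, Hsp90b1, Pdia5 and Dnajb9 it lies between the other days in CPM. In log2(TPM + 1) Hspa5 and Hsp90b1 were not below day 0 at day 12. Relative to that scale's median of all genes, Hspa5 was level and Hsp90b1 was at -0.18.

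Among J proteins of the ER, Dnajb9 (ERdj4, which with BiP holds the sensor IRE1 inactive) fell most. Its libraries held 41.7, 39.8 and 38.7 CPM at day 0, 23.5, 23.7 and 23 CPM at day 6 and 27, 25.6 and 29.6 CPM at day 12, with no overlap. The changes were -0.78 ± 0.05 at day 6 against day 0 (adjusted p = 1.87e-09), 0.23 ± 0.051 at day 12 against day 6 (adjusted p = 0.00216) and -0.55 ± 0.049 at day 12 against day 0 (adjusted p = 1.05e-07). Dnajb14, in the ER membrane, had 57.7, 53.2 and 56.1 CPM at day 6 against 75.6, 77.6 and 77.2 CPM at day 0 and fell by 0.47 on the log2 scale at day 6 against day 0 without a call between day 12 and day 6 (0.06 ± 0.04, adjusted p = 0.288).

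Smaller falls at day 6 against day 0 were measured for Dnajc1 (-0.32), Dnajb12 (-0.18), Dnajb11 (ERdj3, -0.16), Dnajc3 (P58IPK, an inhibitor of the kinase PERK, -0.13) and Hspa13 (-0.11). The falls of Dnajc3 and Hspa13 were not called in log2(TPM + 1) (-0.08, adjusted p = 0.194, and -0.05, adjusted p = 0.307). The calls for Dnajb11, Dnajc3 and Hspa13 between day 12 and day 6 (0.10, 0.13 and 0.11) were each lost in at least 1 fit without a library. Without library C of day 6 their adjusted p were 0.114, 0.0593 and 0.0652. Without library C of day 12 they were 0.0649, 0.0578 and 0.0572. For Dnajb11 the call was also lost without library A of day 6 (adjusted p = 0.0965) or of day 12 (adjusted p = 0.057), and for Hspa13 its fall at day 6 against day 0 was lost without library C of day 6 (adjusted p = 0.0561).

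The 2 ER genes that rose at day 6 against day 0 were Dnajc10 and Dnajc14. Dnajc10 encodes ERdj5, a reductase that opens disulfide bonds ahead of degradation. It had 296, 312 and 293 CPM at day 6 against 269, 270 and 259 CPM at day 0, a change of 0.18 ± 0.037 (adjusted p = 0.000593), and 294, 288 and 311 CPM at day 12. Days 6 and 12 overlapped, and their difference was -0.01 ± 0.037 (adjusted p = 0.792). Dnajc14 had 144, 143 and 140 CPM at day 6 against 127, 123 and 122 CPM at day 0 (0.20 ± 0.028, adjusted p = 1.17e-05). Dnajc18 was higher at day 12, with 28, 27.7 and 26.8 CPM, against 24.1, 21.6 and 22.1 CPM at day 0 (0.28 ± 0.049, adjusted p = 0.000105), and its day 12 libraries lay above those of both other days.

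In the cytosol, 8 of the 14 genes of the HSP70, HSP90 and HSP110 families and their partners fell between day 6 and day 0 and 4 rose. These are 57.1% and 28.6%, where 31.4% and 33.5% of all genes did so. Hspa8, Hsp90aa1, Hsp90ab1 and Hsph1 were among those that fell, and Hspa1a, Hspa1b and Hspa12a among those that rose. The step between days 12 and 6 had 5 rises and 3 falls (35.7% and 21.4%, against 22.6% and 22.7% of all genes). In log2(TPM + 1), where 8876 of all 16353 genes were called and 90.1% of these were higher, 11 rose and none fell. Day 12 against day 0 gave 5 of each, 35.7% both ways, near the 34.7% of all genes that rose and 31.7% that fell. In log2(TPM + 1), where 10394 of all 16353 genes were called and 81.3% of these were higher, there were 10 rises and 1 fall.

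Per length, 3 of these genes made up a large share of all chaperone transcripts. Hsp90ab1, the constitutive HSP90, averaged 1820 TPM at day 0, 1480 TPM at day 6 and 1960 TPM at day 12. Hspa8, the constitutive HSC70, averaged 1780, 1390 and 2070 TPM, and Hsp90aa1, the HSP90 that stress induces further, 1130, 796 and 1250 TPM at the same days. Hspa8 and Hsp90ab1 changed places at day 12, when the lowest Hspa8 library had 2050 TPM and the highest Hsp90ab1 library 1980 TPM. The ER chaperone Hspa5 had rank 4 at day 0 with 512 TPM, rank 8 at day 6 with 328 TPM and rank 4 again at day 12 with 583 TPM.

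Hspa8 had 2410, 2380 and 2240 CPM at day 0, 1760, 1800 and 1750 CPM at day 6 and 2240, 2310 and 2300 CPM at day 12. Day 6 stood apart below both other days, which overlapped. The fall at day 6 against day 0 was -0.41 ± 0.036 (adjusted p = 9.1e-08), the rise at day 12 against day 6 was 0.37 ± 0.036 (adjusted p = 1.33e-06), and the difference between day 12 and day 0 was -0.04 ± 0.036 (adjusted p = 0.371; 0.22 in log2(TPM + 1)). Hsph1, an HSP110 that releases ADP from HSP70, moved in the same order. It had 157, 161 and 152 CPM at day 0, 119, 114 and 116 CPM at day 6 and 154, 155 and 156 CPM at day 12, with changes of -0.43 ± 0.03 and 0.41 ± 0.03 in the 2 steps and -0.01 ± 0.03 between day 12 and day 0 (adjusted p = 0.732; 0.23 in log2(TPM + 1)).

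Hsp90aa1 had 1860, 1890 and 1750 CPM at day 0, 1200, 1210 and 1150 CPM at day 6 and 1570, 1610 and 1610 CPM at day 12. Its groups did not overlap, and day 6 was lowest. It fell by 0.63 ± 0.037 on the log2 scale at day 6 against day 0 (adjusted p = 5.97e-10) and rose by 0.43 ± 0.037 at day 12 against day 6 (adjusted p = 3.2e-07). Hsp90ab1 changed less, by -0.35 ± 0.034 (adjusted p = 2.6e-07) and 0.19 ± 0.034 (adjusted p = 0.00032). Between day 12 and day 0 the differences of Hsp90aa1 and Hsp90ab1 were -0.20 and -0.16 in CPM, and 0.14 and 0.10 in log2(TPM + 1), which is below that scale's median of all genes by 0.05 and 0.09.

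The inducible HSP70 pair Hspa1a and Hspa1b lie in tandem on chromosome 17 and share most of their sequence, so their split is uncertain and their sum is the safer measure. The pair summed to 93.8, 89.9 and 90.5 CPM at day 0, 150, 138 and 148 CPM at day 6 and 161, 146 and 141 CPM at day 12. Both later groups lay above day 0, and they overlapped each other. Fitted alone, Hspa1b differed by 0.76 ± 0.051 between day 6 and day 0 (adjusted p = 3.19e-09), by 0.04 ± 0.05 between day 12 and day 6 (adjusted p = 0.529) and by 0.80 ± 0.051 between day 12 and day 0 (adjusted p = 2.07e-09). The values of Hspa1a were 0.36 ± 0.04, 0.03 ± 0.039 and 0.39 ± 0.039. In log2(TPM + 1) both were called higher at day 12 than at day 6 (0.25, adjusted p = 0.00777 for Hspa1b, and 0.22, adjusted p = 0.00316 for Hspa1a).

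Hspa12a, a distant HSP70 relative, had the strongest rise of the 77 genes between day 6 and day 0 (ENSMUSG00000025092, chr19:58795750-58943654). Its libraries held 19.1, 18.4 and 19.7 CPM at day 0, 54.7, 49.3 and 51.8 CPM at day 6 and 40.7, 38.9 and 40.9 CPM at day 12. The groups stood apart, with day 12 between the others and nearer to day 6. The changes were 1.44 ± 0.045 (2.72-fold, adjusted p = 3.3e-13) at day 6 against day 0, -0.37 ± 0.042 (adjusted p = 5.82e-06) at day 12 against day 6, which was -0.13 in log2(TPM + 1) and lost its call there (adjusted p = 0.0929), and 1.07 ± 0.045 (adjusted p = 1.69e-11) at day 12 against day 0.

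Hspa2, best known from the testis, went above day 0 at day 12. It had 44.5, 40.3 and 42.6 CPM at day 0, 37.6, 34 and 36.1 CPM at day 6 and 58.8, 52.8 and 51.3 CPM at day 12, and no groups overlapped. It fell by 0.25 ± 0.054 on the log2 scale at day 6 against day 0 (adjusted p = 0.000982), rose by 0.60 ± 0.054 at day 12 against day 6 (adjusted p = 5.31e-07) and was 0.35 ± 0.053 higher at day 12 than at day 0 (adjusted p = 2.82e-05). Hspa4l, another HSP110, stepped down at both times in CPM, with 287, 291 and 295 CPM at day 0, 236, 219 and 231 CPM at day 6 and 208, 196 and 205 CPM at day 12. Its steps were -0.35 ± 0.035 and -0.17 ± 0.035, the second of which was 0.18 in log2(TPM + 1), and day 12 against day 0 gave -0.52 ± 0.035 in CPM and -0.18 in log2(TPM + 1). Hspa4, of the same family, differed less, by -0.13 ± 0.034 at day 6 against day 0 (adjusted p = 0.00354; -0.05 with adjusted p = 0.225 in log2(TPM + 1)).

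**Figure D4:**
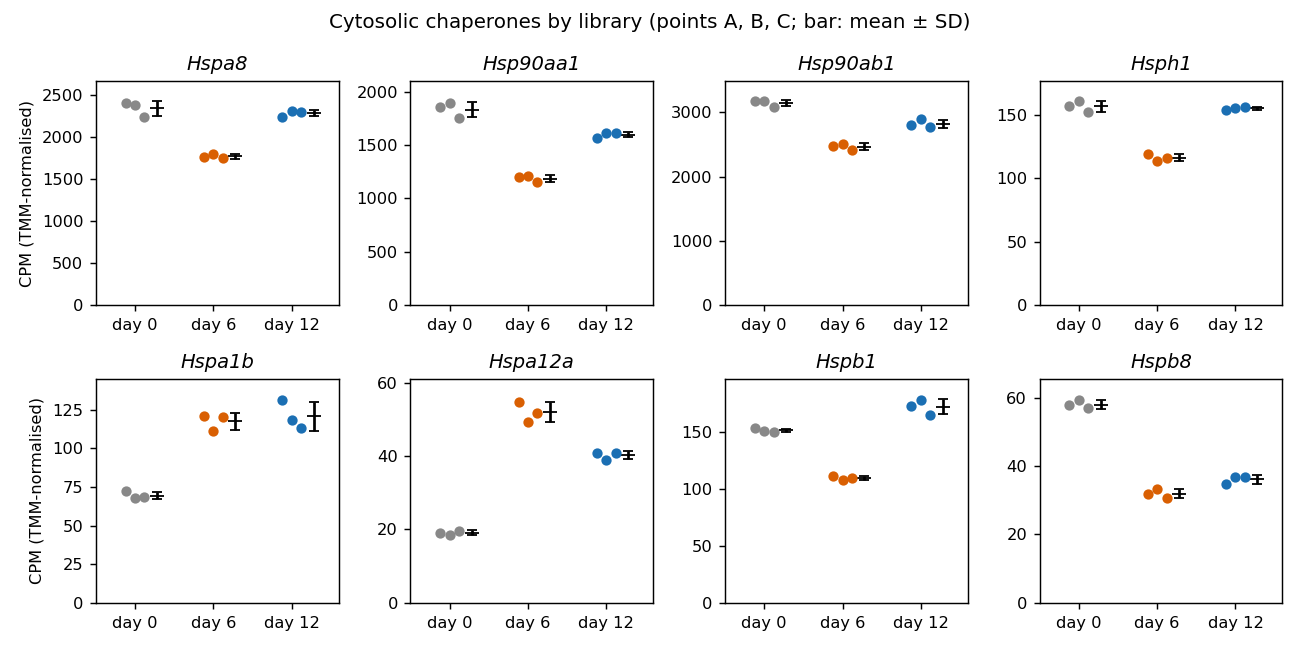
CPM of 8 cytosolic chaperone genes in each library (points A, B and C by day) with the mean ± SD of 3 libraries as a bar. Hspa8, Hsp90aa1, Hsp90ab1, Hsph1, Hspb1 and Hspb8 are lowest at day 6, and Hspa1b and Hspa12a lowest at day 0. In log2(TPM + 1), Hsp90aa1 and Hsp90ab1 were above day 0 at day 12, but at -0.05 and -0.09 relative to that scale's median of all genes.

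Hspbp1 was counted with the cytosolic HSP70 genes. Of the 6 genes grouped here with the small heat shock proteins, 4 fell and 1 rose between day 6 and day 0. These are 66.7% and 16.7%, where 31.4% and 33.5% of all genes did so. The 4 that fell were the small heat shock proteins Hspb1 and Hspb8, and Hspbap1 and Hspb11, which are not of that family. Hspbap1 encodes a protein that binds HSP27 (-0.17 ± 0.043, adjusted p = 0.00331), and Hspb11 is known as a subunit of intraflagellar transport. At day 12 against day 6, 4 rose and 1 fell (66.7% and 16.7%, against 22.6% and 22.7% of all genes). On log2(TPM + 1), where 8876 of all 16353 genes were called and 90.1% of these were higher, 4 rose and none fell. Hspb1 encodes HSP27, which holds clients and binds actin. It had 153, 151 and 150 CPM at day 0, 111, 108 and 110 CPM at day 6 and 173, 178 and 165 CPM at day 12. All groups were apart, and day 12 was highest. Its changes were -0.46 ± 0.032 (adjusted p = 4.23e-09), 0.65 ± 0.032 (adjusted p = 8.4e-10), which was the strongest called rise between day 12 and day 6 among the 77 genes, and 0.19 ± 0.031 (adjusted p = 7.56e-05) between day 12 and day 0.

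Hspb8, which works with BAG3 in clearing aggregates, had 57.8, 59.2 and 56.8 CPM at day 0, 31.7, 33.4 and 30.7 CPM at day 6 and 34.6, 36.7 and 36.9 CPM at day 12. In CPM, day 12 lay just above day 6 and far below day 0. In log2(TPM + 1) Hspb8 differed at day 12 by 0.37 from day 6 and by -0.42 from day 0. It fell by 44.8% at day 6 against day 0 (-0.86 ± 0.04, adjusted p = 3.53e-11) and differed by 0.17 ± 0.041 at day 12 against day 6 (adjusted p = 0.00269) and by -0.68 ± 0.039 at day 12 against day 0 (adjusted p = 6.17e-10). Hspb6, HSP20, went the other way, with 10.2, 9.35 and 10.5 CPM at day 0, 18.6, 19.1 and 17.7 CPM at day 6 and 16.5, 16.3 and 16.1 CPM at day 12. It rose by 83.9% at day 6 against day 0 (0.88 ± 0.054, adjusted p = 1.06e-09). Its fall at day 12 against day 6 (-0.18 ± 0.052, adjusted p = 0.00998) was lost without library B of day 6 (adjusted p = 0.0512) and was 0.02 in log2(TPM + 1). Hspb11 fell and rose again (-0.53 ± 0.082 and 0.54 ± 0.082).

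The 22 J proteins of cytosol and nucleus showed no common direction. Between day 6 and day 0, 10 fell and 6 rose, with a median of -0.053. These are 45.5% and 27.3%, where 31.4% and 33.5% of all genes did so. Day 12 against day 6 gave 5 falls and 6 rises (22.7% and 27.3%, against 22.7% and 22.6% of all genes). In log2(TPM + 1), where 8876 of all 16353 genes were called and 90.1% of these were higher, 2 fell and 15 rose. Against day 0, 9 were lower and 6 higher at day 12 (40.9% and 27.3%, against 31.7% and 34.7% of all genes). In log2(TPM + 1), where 10394 of all 16353 genes were called and 81.3% of these were higher, 4 were lower and 10 higher.

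The strongest falls at day 6 against day 0 were in Dnajc21, which acts in making the large ribosomal subunit, and in Dnajc12, a helper of the aromatic amino acid hydroxylases. Dnajc21 had 53.6, 55.7 and 52.3 CPM at day 0, 30, 30.2 and 28.4 CPM at day 6 and 34.6, 38.2 and 36.6 CPM at day 12. It changed by -0.87 ± 0.043 (adjusted p = 7.88e-11), 0.30 ± 0.044 (adjusted p = 5.18e-05) and, at day 12 against day 0, -0.56 ± 0.042 (adjusted p = 1.29e-08). Dnajc12 had 10.5, 10.3 and 10.8 CPM at day 0, 6.26, 5.29 and 6.11 CPM at day 6 and 8.81, 8.09 and 9.93 CPM at day 12. Its changes were -0.85 ± 0.083 and 0.60 ± 0.084, and the difference at day 12 against day 0 (-0.24 ± 0.079, adjusted p = 0.0133) was lost without library B of day 12 (adjusted p = 0.0742) and in log2(TPM + 1), where it was -0.08 (adjusted p = 0.567).

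Dnajc2 and Hspa14 encode the partners of the complex that chaperones new chains at the ribosome. Dnajc2 stayed low at day 12. It had 92.9, 93.9 and 92.2 CPM at day 0, 64.2, 64.3 and 60.6 CPM at day 6 and 60.6, 62.9 and 62.3 CPM at day 12, with changes of -0.56 ± 0.032 at day 6 against day 0 and -0.59 ± 0.032 at day 12 against day 0 (-0.32 in log2(TPM + 1)). Hspa14 fell by 0.23 ± 0.031 on the log2 scale at day 6 against day 0 and was -0.20 ± 0.031 at day 12 against day 0, or 0.04 in log2(TPM + 1).

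The J proteins that rose at day 6 against day 0 include Dnajb1 (HSP40, the main J partner of the inducible HSP70), Dnajb2, Dnajb5 and Dnaja1. Dnajb1 had 69.9, 71.3 and 68.1 CPM at day 6 against 61.4, 61.5 and 60.1 CPM at day 0, a change of 0.19 ± 0.03 (adjusted p = 3.08e-05), and 71.3, 72.4 and 71.8 CPM at day 12. Dnajb5 had 15.6, 15.7 and 16.2 CPM at day 6 against 11.3, 10.4 and 10.6 CPM at day 0 (0.55 ± 0.057, adjusted p = 4.7e-07), and Dnajb2 41.8, 41.1 and 41.4 CPM at day 6 against 32.4, 30.9 and 28.9 CPM at day 0 (0.43 ± 0.043, adjusted p = 3.45e-07). For these 3 genes days 6 and 12 overlapped in CPM, and both lay above day 0. Dnajb1 and Dnajb2 were called higher at day 12 than at day 6 in log2(TPM + 1) (0.25, adjusted p = 0.000236, and 0.20, adjusted p = 0.0146). Dnaja1, which like Dnajb1 serves HSC70, had 556, 564 and 533 CPM at day 6 against 515, 513 and 485 CPM at day 0. It changed by 0.13 ± 0.035 (adjusted p = 0.00426), and by 0.15 without a call in log2(TPM + 1) (adjusted p = 0.0511).

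Dnajc13, a J protein of endosomes, rose at day 6 and fell at day 12. It had 125, 127 and 129 CPM at day 0, 144, 145 and 144 CPM at day 6 and 116, 97.3 and 109 CPM at day 12, where the libraries spread more. The changes were 0.19 ± 0.047 at day 6 against day 0 (adjusted p = 0.0025), -0.43 ± 0.047 at day 12 against day 6 (adjusted p = 3.79e-06) and -0.24 ± 0.047 at day 12 against day 0 (adjusted p = 0.000312; 0.04 in log2(TPM + 1)). Dnajc5, the cysteine string protein of vesicles, stepped down in CPM, with 388, 383 and 397 CPM at day 0, 346, 357 and 350 CPM at day 6 and 300, 299 and 301 CPM at day 12. Its steps were -0.15 ± 0.029 and -0.23 ± 0.029, the second of which was 0.01 in log2(TPM + 1), and day 12 against day 0 gave -0.38 ± 0.029, or -0.15 in log2(TPM + 1). Dnajb4, close to Dnajb1 in sequence, had 48.6, 51.9 and 48.5 CPM at day 6 against 54.5, 57.7 and 56.3 CPM at day 0 (-0.18 ± 0.038, adjusted p = 0.00081) and was at 57.5, 61.4 and 60.1 CPM at day 12 (0.26 ± 0.038 against day 6, adjusted p = 5.06e-05).

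Dnajc8, a splicing-associated J protein, had 137, 142 and 136 CPM at day 12 against 152, 150 and 146 CPM at day 6 (-0.11 ± 0.03, adjusted p = 0.00893; 0.10 in log2(TPM + 1)). Its difference between day 6 and day 0 (-0.09 ± 0.03, adjusted p = 0.0133) was lost without library A of day 0 (adjusted p = 0.0532) or library C of day 6 (adjusted p = 0.0723), and in log2(TPM + 1) (adjusted p = 0.105). Dnajc17, known in thyroid development and splicing, had 5.57, 6.49 and 6.47 CPM at day 6 against 9.58, 9.09 and 9.82 CPM at day 0 (-0.62 ± 0.08, adjusted p = 5.52e-06). Dnajb6, which holds back aggregation, differed little, with -0.08 ± 0.028 at day 12 against day 6, a call lost in 4 of the fits that left out a library, with adjusted p of 0.0945 and 0.0735 without library A or B of day 6 and 0.0557 and 0.0791 without library B or C of day 12.

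In mitochondria, 6 of 10 genes fell and 2 rose between day 6 and day 0, with a median of -0.376. These are 60% and 20%, where 31.4% and 33.5% of all genes did so. From there to day 12, 6 rose and none fell, where 22.6% and 22.7% of all genes did so. In log2(TPM + 1), where 8876 of all 16353 genes were called and 90.1% of these were higher, 9 rose and none fell. Compared with day 0, 4 were lower and 3 higher at day 12 (40% and 30%, against 31.7% and 34.7% of all genes). In log2(TPM + 1), where 10394 of all 16353 genes were called and 81.3% of these were higher, 3 were lower and 4 higher. The mitochondrial chaperonin HSP60 and its lid HSP10 are encoded by Hspd1 and Hspe1, which are transcribed in opposite directions from a shared promoter.

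That promoter holds the heat shock element searched for, GAA, TTC and GAA with any 2 bases between neighbours, which HSF1 is known to bind. The letters were in the windows of Hspd1, Hspe1, Dnajb6 and Hsph1, and in 0.662% of all genes with a window. In the shared site 2 matches overlap, 1 on each strand, and the Hsph1 match lies after its start. From the start of Hspe1 the site spans bases 89 to 72 before it, from that of Hspd1 bases 144 to 127 before it, and the Dnajb6 match begins 46 or 127 bases before its 2 starts. The sites of Hspe1 (Hspd1 reads the same bases from the other strand) and of Dnajb6 are shown with the fixed letters in capitals.
Hspe1, chr1:55088053-55088082, plus strand: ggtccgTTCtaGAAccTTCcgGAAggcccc
Dnajb6, chr5:29735844-29735873, plus strand: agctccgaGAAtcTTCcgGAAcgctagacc
Of the 11 cytosolic HSP70, HSP90 and HSP110 genes with a window, only Hsph1 held these exact letters, which says nothing about HSF1 at the others.

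Hspd1 had 587, 605 and 528 CPM at day 0, 313, 315 and 299 CPM at day 6 and 369, 374 and 382 CPM at day 12. Hspe1 had 105, 99.2 and 92.8 CPM at day 0, 68.8, 73.1 and 69 CPM at day 6 and 88.9, 89 and 96.8 CPM at day 12. Both were lowest at day 6, but at day 12 Hspd1 stayed apart below day 0 whereas Hspe1 overlapped it. Hspd1 fell by 46.1% at day 6 against day 0 (-0.89 ± 0.044, adjusted p = 7.81e-11), rose by 0.28 ± 0.044 at day 12 against day 6 (adjusted p = 0.000114) and was -0.61 ± 0.044 at day 12 against day 0 (adjusted p = 7.97e-09; -0.35 in log2(TPM + 1)). Hspe1 changed by -0.50 ± 0.047 (adjusted p = 1.64e-07) and 0.38 ± 0.047 (adjusted p = 1.15e-05). Its call between day 12 and day 0 (-0.12 ± 0.046, adjusted p = 0.0383) was lost in 5 of the fits without a library, with adjusted p of 0.221 and 0.0819 without library A or B of day 0, 0.0508 without library A of day 6, and 0.136 and 0.116 without library A or B of day 12. In log2(TPM + 1) it was 0.09, or -0.1 relative to that scale's median of all genes.

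Hspa9, mortalin, pulls proteins into the matrix and folds them there. It had 782, 786 and 750 CPM at day 0, 536, 547 and 515 CPM at day 6 and 508, 503 and 518 CPM at day 12. Both later days stood below day 0 and overlapped each other. It fell by 0.54 ± 0.034 on the log2 scale at day 6 against day 0 (adjusted p = 1.33e-09), differed by -0.06 ± 0.034 at day 12 against day 6 (adjusted p = 0.135; 0.15 in log2(TPM + 1)) and was -0.60 ± 0.034 at day 12 against day 0 (adjusted p = 4.52e-10; -0.33 in log2(TPM + 1)). Dnajc19, a J protein of the import motor, had 37.6, 37 and 36.7 CPM at day 0, 22.6, 23.2 and 22.5 CPM at day 6 and 27.2, 27.4 and 29.9 CPM at day 12, with no overlap. It fell by 0.70 ± 0.042 at day 6 against day 0 and was -0.40 ± 0.041 at day 12 against day 0.

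Dnaja3, the J partner of mortalin in the matrix, had 84.6, 86.2 and 83.9 CPM at day 0, 77.2, 77.8 and 76.6 CPM at day 6 and 91.1, 92.4 and 93.3 CPM at day 12. No groups overlapped, and day 12 was highest (0.12 ± 0.027 against day 0, adjusted p = 0.00129). Dnajc28 rose at both steps, by 0.31 ± 0.062 and 0.29 ± 0.06, to 14.2, 13.9 and 12.9 CPM at day 12, against 8.92, 9.57 and 8.62 CPM at day 0.

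The cytosolic chaperonin, a double ring that folds actin and tubulin, was lower at day 6 and, in CPM, remained low at day 12. All 7 subunit genes in the set fell between day 6 and day 0, with log2 fold changes of -0.55 for Cct6a to -0.31 for Cct4, and all 7 were lower at day 12 than at day 0, from -0.54 for Cct6a to -0.13 for Cct4. Of all genes tested, 31.4% fell between day 6 and day 0 and 31.7% were lower at day 12 than at day 0. In log2(TPM + 1) 5 of the 7 were lower at day 12 than at day 0, Cct8 was not called (-0.07, adjusted p = 0.211) and Cct4 was higher (0.11). That scale called 10394 of all 16353 genes in this comparison, 81.3% of these higher. Relative to that scale's median of all genes, Cct8 was at -0.26 and Cct4 at -0.08. Between day 12 and day 6, Cct4 and Cct7 rose (28.6%, where 22.6% of all genes did so) and the other 5 did not pass the test. In log2(TPM + 1) all 7 rose, with a median of 0.235 where that of all genes was 0.164. On that scale 8876 of all 16353 genes were called, 90.1% of these higher.

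Cct6a had 402, 397 and 388 CPM at day 0, 270, 280 and 258 CPM at day 6 and 264, 273 and 279 CPM at day 12. Cct2 had 522, 517 and 491 CPM at day 0, 372, 377 and 361 CPM at day 6 and 367, 374 and 382 CPM at day 12. For both, days 6 and 12 overlapped and lay below day 0. The step between day 12 and day 6 was 0.01 ± 0.035 for Cct6a (adjusted p = 0.793) and 0.02 ± 0.033 for Cct2 (adjusted p = 0.728). Cct5, with 612, 613 and 578 CPM at day 0, 450, 469 and 451 CPM at day 6 and 430, 432 and 445 CPM at day 12, differed by -0.07 ± 0.034 between day 12 and day 6 (adjusted p = 0.118; 0.15 in log2(TPM + 1)). Cct3 and Cct8 differed there by 0.00 ± 0.037 (adjusted p = 0.994) and 0.03 ± 0.039 (adjusted p = 0.59).

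Cct4 stood apart with 207, 206 and 187 CPM at day 0, 160, 166 and 157 CPM at day 6 and 182, 185 and 181 CPM at day 12, where all 3 libraries lay above day 6 (0.18 ± 0.039, adjusted p = 0.00128). The rise of Cct7 was 0.11 ± 0.038 (adjusted p = 0.0332), lost without library A or C of day 6 (adjusted p = 0.115 and 0.0925) or library C of day 12 (adjusted p = 0.15).

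**Figure D5:**
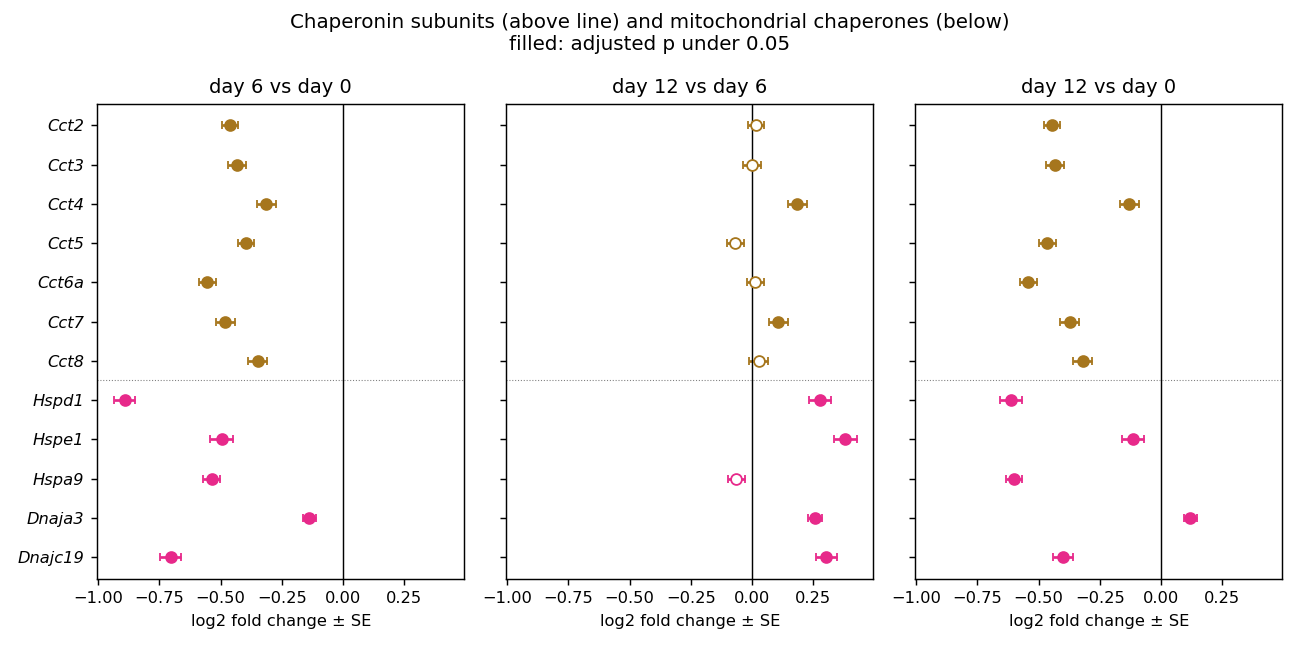
Log2 fold change ± SE of 7 chaperonin subunit genes (above the dotted line) and 5 mitochondrial chaperone genes (below it) on the TMM scale in the 3 comparisons; filled points have an adjusted p under 0.05. The subunits sit left of 0 in both comparisons with day 0 and near 0 between day 12 and day 6. In log2(TPM + 1) Cct4 and Hspe1 were above 0 between day 12 and day 0. Relative to that scale's median of all genes, they were at -0.08 and -0.1. All 7 subunits and Hspa9 were above 0 on that scale between day 12 and day 6, with Cct5 and Hspa9 at -0.01 relative to its median.

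Genes that work with these chaperones, from lists outside the symbol rule, were counted in the same way, but on the TMM scale only. Whether their splits at day 12 hold in log2(TPM + 1) was not counted. For comparison with each list below, 31.4% of all genes tested fell and 33.5% rose between day 6 and day 0. The shares were 22.7% and 22.6% between day 12 and day 6, and 31.7% and 34.7% between day 12 and day 0. Of 25 heat shock factors and cytosolic co-chaperones, 15 fell and 3 rose between day 6 and day 0 (median -0.133), 2 fell and 15 rose between day 12 and day 6 (0.116), and 12 fell and 6 rose between day 12 and day 0 (-0.041). Cryab, the small heat shock protein alpha B-crystallin, which the symbol rule does not reach, had 231, 220 and 233 CPM at day 0, 59.7, 59.1 and 59 CPM at day 6 and 92.6, 95.5 and 95.7 CPM at day 12. Its changes of -1.95 ± 0.031 and 0.67 ± 0.031 were greater than those of any called member in the same direction. Fkbp4, a co-chaperone of HSP90 and steroid receptors, had 135, 131 and 128 CPM at day 6 against 255, 239 and 231 CPM at day 0 (-0.88 ± 0.037), and Stip1, which hands clients on to HSP90 from HSP70, 315, 323 and 309 CPM at day 6 against 441, 445 and 442 CPM at day 0 (-0.49 ± 0.029). Hsf1 changed by -0.13 ± 0.031 at day 6 against day 0 (adjusted p = 0.00152) and by 0.12 ± 0.031 at day 12 against day 6 (adjusted p = 0.00564).

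The list with Tcp1, the eighth subunit of the chaperonin ring, and prefoldin, which delivers actin and tubulin to it, had 10 genes. Between day 6 and day 0, 5 fell and 1 rose, between day 12 and day 6, 1 fell and 1 rose, and between day 12 and day 0, 6 fell and none rose. Tcp1 had 410, 405 and 371 CPM at day 0, 299, 310 and 296 CPM at day 6 and 286, 290 and 307 CPM at day 12, and as for Cct2 days 6 and 12 overlapped and lay below day 0. Vbp1 (prefoldin) fell by 0.71 ± 0.04 on the log2 scale at day 6 against day 0.

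Among 38 further ER folding and quality control genes, 19 fell and 10 rose between day 6 and day 0, 2 fell and 17 rose between day 12 and day 6, and 9 fell and 18 rose between day 12 and day 0. Calr, the lectin chaperone calreticulin, had 795, 800 and 812 CPM at day 0, 578, 576 and 563 CPM at day 6 and 747, 793 and 742 CPM at day 12. Hyou1, the exchange factor of BiP, had 137, 138 and 140 CPM at day 0, 87.6, 83.7 and 86.3 CPM at day 6 and 123, 118 and 116 CPM at day 12. In both, day 6 was the lowest group and stood apart. P4hb, the first described protein disulfide isomerase, went up instead, with 729, 747 and 726 CPM at day 6 against 647, 628 and 611 CPM at day 0 (0.22 ± 0.032) and 794, 780 and 778 CPM at day 12. Herpud1 and Os9, which act in ER-associated degradation, rose by 0.69 ± 0.03 and 0.48 ± 0.031 at day 6 against day 0.

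Sensors and transcription factors of the unfolded protein response moved in both directions. Of 15 tested, 10 fell and 4 rose between day 6 and day 0, 3 fell and 9 rose between day 12 and day 6, and 7 fell and 5 rose between day 12 and day 0. Atf4 had 586, 574 and 537 CPM at day 0, 357, 381 and 344 CPM at day 6 and 383, 396 and 405 CPM at day 12. Ppp1r15a, a phosphatase subunit that ends the translational block, had 75.2, 74.9 and 74.6 CPM at day 0, 37.4, 38.8 and 35.9 CPM at day 6 and 53.4, 53.6 and 51.4 CPM at day 12. Atf6 had its highest level at day 6, with 159, 161 and 154 CPM against 124, 125 and 124 CPM at day 0 (0.35 ± 0.029), and 119, 113 and 117 CPM at day 12. Xbp1 was 21.9, 21.2 and 23.2 CPM at day 6 against 23.3, 23.3 and 20.7 CPM at day 0 (-0.02 ± 0.062, adjusted p = 0.766), and 29.5, 34.2 and 33.1 CPM at day 12 (0.55 ± 0.061 against day 6). These are total transcripts, and the spliced form of Xbp1 was not measured.

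Of 18 mitochondrial co-chaperones, proteases and import genes, 15 fell and none rose between day 6 and day 0 (median -0.249), 2 fell and 9 rose between day 12 and day 6 (0.108), and 11 fell and 3 rose between day 12 and day 0 (-0.181). Trap1, the HSP90 of mitochondria, had 151, 145 and 141 CPM at day 0, 89.6, 89.3 and 90.3 CPM at day 6 and 114, 119 and 122 CPM at day 12. Oma1, a protease of the inner membrane, had 13.3, 12.9 and 12.5 CPM at day 0, 6.39, 6.66 and 6.32 CPM at day 6 and 11.7, 10.8 and 11.4 CPM at day 12. Their falls at day 6 against day 0 were -0.70 ± 0.033 and -1.0 ± 0.058, and no groups overlapped.

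Many chaperone genes have near-identical copies, which limits how reads can be assigned. Of the 77 genes, 19 shared at least 5% of their 50-base stretches with transcripts of another gene and 6 shared at least 50%, among them Hsp90aa1, Hspa1a, Hspa1b, Hspa8 and Hspb1. The counts given to the closest copy of Hsp90aa1, Hspa8, Hspb1 and Hspd1 were 0.592%, 0.602%, 0.856% and 0.681% of those of gene and copy together. For Hspa14 the overlapping gene model Gm45902 held 17.4%. The annotation has exons of other genes over those of 11 members on the same strand and of 29 on the opposite one, and whether the counting used strand is not given in the sources used here.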

How the data were processed

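The members and the lists of related genes were chosen with earlier results of these data known, so nothing here is an independent test of a pattern seen before. The authors deposited raw counts as whole numbers. They also deposited TPM. The submitters' processing notes name the build GRCm38, RSEM 1.3.3, STAR 2.7.8a, cutadapt 2.3 and FastQC 0.11.8, with no role for any of them. Neither strand setting nor annotation is given in the sources used here, and counts that came from RSEM would be rounded estimates. RNA was polyadenylated, per the labels. The 4 entries for Cre and fluorescent proteins (0.00204% to 0.00284% of counts) were left out.

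After filterByExpr and TMM scaling, the quasi-likelihood test of edgeR 4.0.16 (R 4.3.3) was run in 1 fit of 9 libraries with a mean per day (6 residual degrees of freedom), with Benjamini-Hochberg adjustment over 16353 genes. "Rose" and "fell" mean an adjusted p under 0.05. Each SE was derived from the gene's F value. Scripts were tested on simulated data. Named members are the principal chaperones by role and, per comparison, the 6 with the strongest change in each direction (mean CPM of 5 or more, no overlap); of the other lists mainly those with the smallest adjusted p. Other members and list genes named were chosen after their values were seen. The named Cct6b was under the minimum and not tested.

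Alternatives were RLE and upper-quartile factors, DESeq2 1.42.0, no filter, limma 3.58.1 on log2(TPM + 1) and log2(TPM + 0.1), the replicate letter as a block, and each library left out. Depth limits precision, and intervals cover the spread between libraries only. Positions are from GENCODE M21 on GRCm38 and promoter sequences from RefSeq on GRCm38.p6. A member that is not named is counted in the totals and not reported here by its values.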

Additional observations from a re-analysis of the deposited data

How the results depend on the processing

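Between day 6 and day 0, 13 to 15 members rose and 42 to 48 fell under the other scalings and tests, and 14 to 16 rose and 45 to 49 fell when a library was left out. Of all genes, 9238 to 10983 and 10102 to 10740 were called in these fits, 49.9% to 56.3% and 49.9% to 52.1% of them higher. Leaving out a library gave 28 to 35 rising and 7 to 9 falling members between day 12 and day 6, and 18 to 21 and 31 to 34 between day 12 and day 0. Of all genes, 6433 to 7475 and 10290 to 10927 were called there, 49.3% to 50.4% and 50.7% to 52.7% of them higher. TPM changed the splits: with limma on log2(TPM + 1), 64 rose and 2 fell between day 12 and day 6, and 41 rose and 16 fell between day 12 and day 0. Of all 16353 genes, 8876 and 10394 were called, 90.1% and 81.3% of them higher. With log2(TPM + 0.1) the counts were 64 and 2, and 40 and 16, where 8800 and 10494 of all genes were called, 90.1% and 81.3% of them higher. The cause of the changed splits was not tested.

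Signs turned for single genes. On log2(TPM + 1), day 12 against day 6 gave Dnajc10 0.18, Hspa4 0.14, Hspa4l 0.18, Dnaja1 0.25, Dnajb6 0.07, Hspa9 0.15, Cct3 0.21, Cct5 0.15, Hspb6 0.02, Dnajb5 0.14, Dnajc5 0.01, Dnajc8 0.10 and Dnajc2 0.19. Day 12 against day 0 gave Hspa5 0.19, Hsp90b1 0.01, Pdia4 0.23, Dnajb11 0.20, Dnajc3 0.25, Hspa8 0.22, Hspa4 0.09, Hsph1 0.23, Hsp90aa1 0.14, Hsp90ab1 0.10, Dnajb6 0.13, Hspe1 0.09, Cct4 0.11, Dnajc13 0.04 and Dnajc8 0.04. Hspa4l (-0.17 on the TMM scale) and Dnajc8 (-0.11) were called on both scales, in opposite directions, between day 12 and day 6. So were Hspa5 (-0.15), Hsp90aa1 (-0.2), Hsp90ab1 (-0.16) and Cct4 (-0.13) between day 12 and day 0. Relative to the medians of all genes in log2(TPM + 1), these were at 0.02, -0.06, 0.0, -0.05, -0.09 and -0.08. With upper-quartile factors, day 12 against day 6 gave Dnajc10 0.02, Hspa4 0.02, Dnaja1 0.04, Cct3 0.04, Dnajb5 0.01 and Dnajc2 0.01, and day 12 against day 0 gave Pdia4 0.02, Dnajc3 0.03 and Hsph1 0.02, none called. Between day 12 and day 0, RLE factors gave Hspa13 -0.02, Pdia6 -0.01 and Hspb11 -0.02, and DESeq2 -0.02, -0.01 and -0.01 for the same genes. The cause was not tested.

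Without 1 library, the ranges that crossed 0 were, for day 12 against day 6, Cct3 -0.02 to 0.03, Dnaja1 -0.03 to 0.02, Dnajc10 -0.05 to 0.02, Cct2 0.00 to 0.03, Cct6a -0.02 to 0.04, Hspa1b -0.02 to 0.09, Hspa4 -0.04 to 0.00 and Dnajb5 -0.06 to 0.02. For day 12 against day 0 they were Dnajc3 -0.05 to 0.02, Hsph1 -0.04 to 0.01, Hspb11 -0.04 to 0.05, Hspa13 -0.02 to 0.03, Pdia6 -0.02 to 0.03 and Pdia4 -0.03 to 0.01. None of these differences was called with all 9 libraries.

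The labels do not say that a letter marks a shared culture, so the letters were not taken as pairs. Deviations from the day's mean correlated across genes at r of -0.0834 to 0.0783 for the same letter and -0.11 to 0.0954 for different letters. Because the deviations of the 3 libraries of a day cancel out, these values cannot settle whether a letter marks a shared culture. With the replicate block, day 12 against day 0, Dnajb4 passed (0.09, adjusted p = 0.0283) and Hspe1 did not (-0.11, adjusted p = 0.0558), Cct3 was 0.00 (adjusted p = 0.997) between day 12 and day 6, and no other named call changed.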
